A study of Homo sapiens with 4 samples.

Results

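Stem-like ovarian cancer cells are commonly recognised by a small set of genes, and FOXK2 ChIP-seq peaks at 10 of these stemness genes were examined in OVCAR5 cells: ALDH1A1, ALDH1A3, SOX2, POU5F1, NANOG, PROM1, CD44, BMI1, LGR5 and SOX9. They were chosen by name, and a peak belonged to a gene when the deposited annotation listed it under that gene. In this way 3 of 12471 peaks in replicate 1 and 16 of 27281 peaks in replicate 2 belonged to the 10 genes. All samples were OVCAR-5, an established ovarian cancer cell line that the labels describe as high grade serous and as taken from ascites. Chromatin was crosslinked with 1% paraformaldehyde and precipitated with an antibody against FOXK2, in 2 biological replicates of 1 condition. The 2 matched input libraries were not analysed here. Peak lists hold no expression values, so the labelled cell type could not be checked against its markers, and a single cell line bears on no other.

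FOXK2 is a forkhead transcription factor, a family whose members bind DNA at short sites related to TGTTTAC. ALDH1A1 and ALDH1A3 oxidise retinaldehyde and give the aldehyde dehydrogenase activity by which stem-like cancer cells are often sorted, together with the surface proteins CD133, encoded by PROM1, and CD44. SOX2, POU5F1 and NANOG form the core circuit of pluripotency, BMI1 is a Polycomb protein of self-renewal, LGR5 is a receptor for R-spondins that raises Wnt signalling, and SOX9 marks progenitor cells in many epithelia.

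The regions that the results turn on are given here as their replicate 2 peaks, on the plus strand of hg38. The first 3 are the peaks found in both replicates, and the next 2 are the only peaks of SOX2 and ALDH1A3. The last lies 4039 bp before the BMI1 start. Capitals mark TGTTTAC and its variant TGTTTAT, read on either strand, so that GTAAACA and ATAAACA are the same sites on the minus strand. These letter matches are a description and not a measured binding site.
ALDH1A1 chr9:72979373-72979629: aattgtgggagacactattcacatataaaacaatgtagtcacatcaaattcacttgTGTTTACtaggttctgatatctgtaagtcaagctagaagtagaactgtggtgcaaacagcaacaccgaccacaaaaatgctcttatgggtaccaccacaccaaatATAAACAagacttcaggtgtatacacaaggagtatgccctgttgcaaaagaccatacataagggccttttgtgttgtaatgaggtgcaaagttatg
LGR5 chr12:71469229-71469485: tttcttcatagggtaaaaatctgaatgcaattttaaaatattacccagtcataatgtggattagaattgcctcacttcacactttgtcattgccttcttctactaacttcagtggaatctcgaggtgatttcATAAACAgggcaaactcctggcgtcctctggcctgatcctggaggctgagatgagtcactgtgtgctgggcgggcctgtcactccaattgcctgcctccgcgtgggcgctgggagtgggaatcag
PROM1 chr4:16057234-16057490: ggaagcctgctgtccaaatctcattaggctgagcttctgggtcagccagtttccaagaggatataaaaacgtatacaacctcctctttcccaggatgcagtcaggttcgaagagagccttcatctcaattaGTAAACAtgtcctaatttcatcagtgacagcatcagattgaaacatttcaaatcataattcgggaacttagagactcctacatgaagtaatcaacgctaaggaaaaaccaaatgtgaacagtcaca
SOX2 chr3:181709708-181709964: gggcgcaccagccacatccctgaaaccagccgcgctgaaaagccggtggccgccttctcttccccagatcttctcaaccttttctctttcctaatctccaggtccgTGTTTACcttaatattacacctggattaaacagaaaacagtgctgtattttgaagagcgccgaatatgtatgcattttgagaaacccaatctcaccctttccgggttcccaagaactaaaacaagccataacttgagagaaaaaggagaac
ALDH1A3 chr15:100759676-100759932: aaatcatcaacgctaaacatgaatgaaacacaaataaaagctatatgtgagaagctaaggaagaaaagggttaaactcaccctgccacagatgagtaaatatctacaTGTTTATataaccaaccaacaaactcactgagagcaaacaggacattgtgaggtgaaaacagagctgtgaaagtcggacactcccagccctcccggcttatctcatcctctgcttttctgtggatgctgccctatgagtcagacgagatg
COMMD3-BMI1 chr10:22316932-22317188: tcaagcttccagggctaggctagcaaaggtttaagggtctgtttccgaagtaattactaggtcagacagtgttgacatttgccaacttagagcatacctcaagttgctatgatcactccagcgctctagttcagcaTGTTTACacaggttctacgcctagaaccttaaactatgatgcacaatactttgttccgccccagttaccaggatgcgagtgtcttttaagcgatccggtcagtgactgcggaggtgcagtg

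Peaks in both replicates were found at ALDH1A1, PROM1 and LGR5, at 3 of the 10 genes (30.0%, Wilson 95% interval 10.8% to 60.3%). ALDH1A3, SOX2 and SOX9 had peaks in replicate 2 and none in replicate 1. By gene name, no peak was listed under POU5F1, NANOG, CD44 or BMI1 in either replicate. Among all 20056 protein-coding genes, 31.3% had a peak in replicate 1, 51.7% in replicate 2, 28.6% in both and 45.6% in neither, so the stemness genes were close to the background share. None of the 10 genes had a promoter peak in either replicate (0 of 10, interval 0% to 27.8%), where promoters run from 1000 bp before to 100 bp after the TSS, while 23.7% of protein-coding genes had a promoter peak in either replicate.

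**Figure D1:**
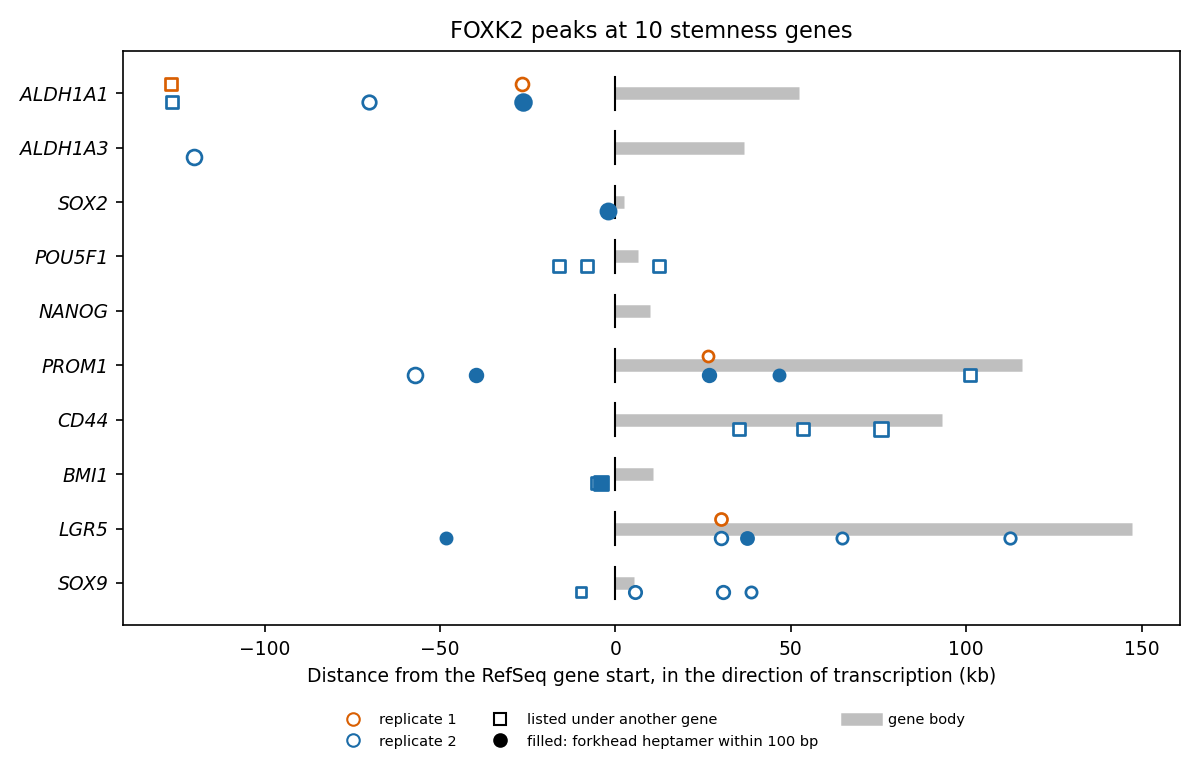
Position of FOXK2 peaks along the 10 stemness genes, in kb from the RefSeq gene start and in the direction of transcription. Circles are peaks listed under the gene, and squares are peaks within 10000 bp of its GENCODE body that are listed under another gene. Larger symbols have higher scores, so sizes are to be compared within a replicate only. Filled symbols have the forkhead heptamer within 100 bp of the peak centre. ALDH1A1, PROM1 and LGR5 carry circles from both replicates, and the 2 squares before BMI1 nearly coincide.

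The strength of a peak is given by its HOMER score, a tag count scaled to the depth of its library, and is compared by its rank within its own list, with the percentile as its place from the lowest score upward, as a percent of the list, where peaks with equal scores share their mean place. Scores moved in steps of 0.189 in replicate 1 and 0.149 in replicate 2. If a step is 1 tag and the scale is HOMER's default of 10000000 tags, the libraries held about 53000000 and 67200000 tags, and a median peak held 31 and 49 tags. Tag counts given with a gene carry exact Poisson 95% intervals, and all intervals here cover counting error only.

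Of the aldehyde dehydrogenase genes, ALDH1A1 had the strongest peak of any of the 10 genes in either replicate. Its shared peak lay in an intergenic region upstream of the annotated TSS, at -26238 bp in replicate 1 and -26184 bp in replicate 2, with a score of 8.49 in replicate 1 (rank 2809, percentile 76.9, 45 tags, interval 32.8 to 60.2) and 17.1 in replicate 2 (rank 2416, percentile 91.1, 115 tags, interval 94.9 to 138). The replicates overlapped there by 180 bp. Within the sequence printed above, TGTTTAC lay 15 bp outside the narrower replicate 1 peak, and the TGTTTAT site lay inside it. A further replicate 2 peak at ALDH1A1, at -70047 bp from the TSS, scored 10.1 (percentile 71.7) and had no partner in replicate 1, whose nearest peak was 43809 bp away. Long transcripts in GENCODE release 44 place both peaks inside ALDH1A1, whose GENCODE body of 179772 bp is longer than the RefSeq body of 52383 bp. At the far end of that longer body, 783 and 849 bp from the start of an annotated ALDH1A1 transcript, a peak listed under ANXA1, a gene of a calcium-dependent membrane protein, was found in both replicates with scores of 4.72 (percentile 26.7) and 6.69 (percentile 43.5).

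ALDH1A3 had 1 peak, in replicate 2, at 119888 bp upstream of the TSS. It scored 14.1 (percentile 86.0, 95 tags, interval 76.9 to 116) and held TGTTTAT near its centre. No replicate 1 peak overlapped it, and the nearest was 27017 bp away. For comparison, of 500 replicate 2 peaks next to it in rank, 69.8% had a replicate 1 partner.

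Among the pluripotency genes, SOX2 was the only one with a peak under its own name. This replicate 2 peak lay 2088 bp upstream of the TSS, in the last intron of SOX2-OT, a long noncoding RNA gene that overlaps SOX2, and scored 15.0 (percentile 87.9, 101 tags, interval 82.3 to 123). TGTTTAC lay 19 bp from its centre. It had no partner in replicate 1, although 74.2% of like-ranked peaks did, and the nearest replicate 1 peak was 141362 bp away.

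POU5F1 encodes OCT4, and 3 replicate 2 peaks near it were listed under neighbouring genes. A peak at the promoter of CCHCR1 scored 7.14 (percentile 48.5). The others were listed under the noncoding gene PSORS1C3, with scores of 5.95 (percentile 34.8) and 4.91 (percentile 20.1). The former lay inside the longer GENCODE body of POU5F1, 1888 bp from the start of one of its transcripts, and over an L2 repeat. None had a partner in replicate 1. NANOG was the only one of the 10 genes with neither a listed peak nor one within 10000 bp, and its nearest peaks were 227253 bp away in replicate 1 and 52643 bp away in replicate 2.

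Of the genes of surface markers, PROM1 had 1 listed peak in replicate 1 and 4 in replicate 2. The shared site in intron 1 scored 3.77 in replicate 1 (rank 11801, percentile 3.87, 20 tags, interval 12.2 to 30.9) and 7.58 in replicate 2 (percentile 52.9, 51 tags, interval 38.0 to 67.1). The replicates met there only at their edges, with an overlap of 67 bp and centres 167 bp apart, a gap that 98.5% of all overlapping pairs did not exceed. TGTTTAC lay 6 bp from the replicate 2 centre and 53 bp outside the replicate 1 peak. The strongest PROM1 peak was a different site, at -57208 bp from the TSS, which scored 14.1 in replicate 2 (percentile 86.0) with no TGTTTAC and no partner in replicate 1. The other 2 replicate 2 peaks, in intron 2 and at -39620 bp from the TSS, scored 4.02 (percentile 6.72) and 7.88 (percentile 55.8), and both held TGTTTAC within 3 bp of the centre. The former lay 598 bp from the start of an annotated PROM1 transcript. A further replicate 2 peak in intron 22, over an L2 repeat, was listed under FGFBP2, a neighbouring gene of a secreted protein, and scored 3.72 (percentile 2.71) with no partner in replicate 1.

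CD44 had no peak under its own name but 3 inside its body, all in replicate 2 and all listed under SNORD164, a small nucleolar RNA gene within CD44. Their scores were 8.33, 8.33 and 11.6 (percentiles 59.5, 59.5 and 78.5), and none held TGTTTAC. Of those at 8.33, the first lay over a MIR repeat and the second held TGTTTAT. The highest lay in an intron, 105 bp from the start of an annotated CD44 transcript. The nearest replicate 1 peak was 104911 bp from the gene. The listing depends on the nearest TSS, and of the peaks inside protein-coding bodies 30.6% in replicate 1 and 32.4% in replicate 2 were listed under another gene.

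Of the self-renewal and progenitor genes, BMI1 likewise had no peak of its own, and 2 replicate 2 peaks lay upstream of it at COMMD3, the adjoining gene with which it shares a readthrough transcript. The nearer, 4039 bp before the BMI1 start, was listed under COMMD3-BMI1, in intron 1 and 677 bp after the TSS of that listing. It scored 10.9 (percentile 75.3, 73 tags, interval 57.2 to 91.8) and held TGTTTAC 11 bp from its centre. The farther, at the promoter of COMMD3 and at -5348 bp from the BMI1 start, scored 6.99 (percentile 46.9). The nearest replicate 1 peak was 90735 bp from BMI1.

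LGR5 had the most listed peaks of the 10 genes, with 1 in replicate 1 and 5 in replicate 2. Of genes with a replicate 2 peak, 6.83% had at least 5. Its shared peak in intron 1 scored 6.04 in replicate 1 (percentile 52.2, 32 tags, interval 21.9 to 45.2) and 7.88 in replicate 2 (percentile 55.8, 53 tags, interval 39.7 to 69.3), and the replicate 1 peak lay wholly inside that of replicate 2. The printed sequence holds TGTTTAT 7 bp from the replicate 2 centre, and also the AP-1 site TGACTCA. The other 4 peaks, at percentiles of 6.72 to 38.5, had no partner in replicate 1, and the most upstream of them lay inside TSPAN8, the neighbouring tetraspanin gene.

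SOX9 had 3 peaks, all in replicate 2, at the end of the gene and 30761 and 38700 bp downstream of its TSS. They scored 6.99, 7.44 and 4.16 (percentiles 46.9, 51.4 and 9.03), held no TGTTTAC and lay within SOX9-AS1, an antisense noncoding gene. A weaker peak at -9822 bp from the SOX9 start was listed under SOX9-AS1 itself and scored 3.57 (percentile 1.22). The nearest replicate 1 peak was 199020 bp from SOX9.

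Counted by location and not by name, with a peak in or within 10000 bp of the GENCODE body, 3 of the 10 genes had a peak in replicate 1, 8 in replicate 2 and 3 in both. The corresponding shares of 20046 protein-coding genes were 40.2%, 63.2% and 37.5%. ALDH1A1, LGR5 and PROM1 were again the genes with peaks in both replicates. By RefSeq bodies, of which that of ALDH1A1 is much shorter, ALDH1A1 had no such peak in either replicate, and LGR5 and PROM1 remained. The share of all protein-coding genes by RefSeq body is not given here, so that count stands without a background. By GENCODE body, CD44, BMI1 and POU5F1 joined the replicate 2 count and ALDH1A3 left it. The 3 genes with peaks in both replicates have the longest GENCODE bodies of the 10, at 179772 bp for ALDH1A1, 146513 bp for LGR5 and 121303 bp for PROM1, while the others run from 2512 bp for SOX2 to 93521 bp for CD44. The median length was 27654 bp for the 10 genes and 27424 bp for all, and the part of gene length in the counts was not tested.

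The 3 replicate 1 peaks of the stemness genes all had a partner in replicate 2 (100%, Wilson 95% interval 43.9% to 100%), where 74.9% of all replicate 1 peaks did. In replicate 2, 3 of 16 had a partner (18.8%, interval 6.59% to 43.0%), where 34.2% of all replicate 2 peaks did. The median score percentile of the 16 peaks was 52.1, in the middle of the list, and over the like-ranked peaks of each the mean share with a partner was 32.1%. The unpaired peaks included strong ones within the replicate 2 list, those of SOX2, ALDH1A3 and the distal PROM1 site. Of all 3967 replicate 2 peaks that scored at least 14, 85.8% had a partner and 564 did not.

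**Figure D2:**
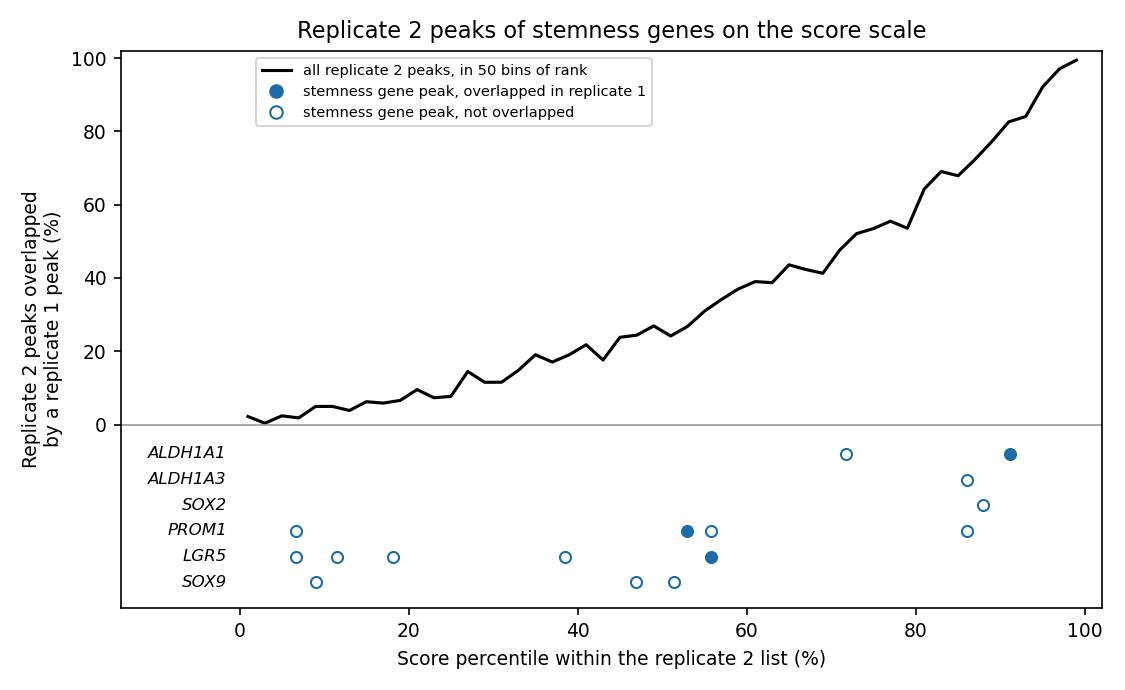
Share of replicate 2 peaks overlapped by a replicate 1 peak, in percent, against score percentile within the replicate 2 list (line, all peaks in bins of rank), with the 16 peaks of the stemness genes marked below at their percentiles (filled, overlapped). The ALDH1A1 peak at percentile 91.1 is overlapped, while those of SOX2 at 87.9 and of ALDH1A3 and PROM1 at 86.0 are not.

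Paired peaks scored higher in replicate 2 than in replicate 1 by a median of 1.73 times over all 9343 pairs (5th to 95th percentile 1.12 to 2.5). The ratio was 2.01 at ALDH1A1, 2.01 at PROM1 and 1.3 at LGR5. All of them lay within the spread of the other pairs. The scores are scaled to separate libraries, so the ratios describe the lists and not a difference in binding.

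**Figure D3:**
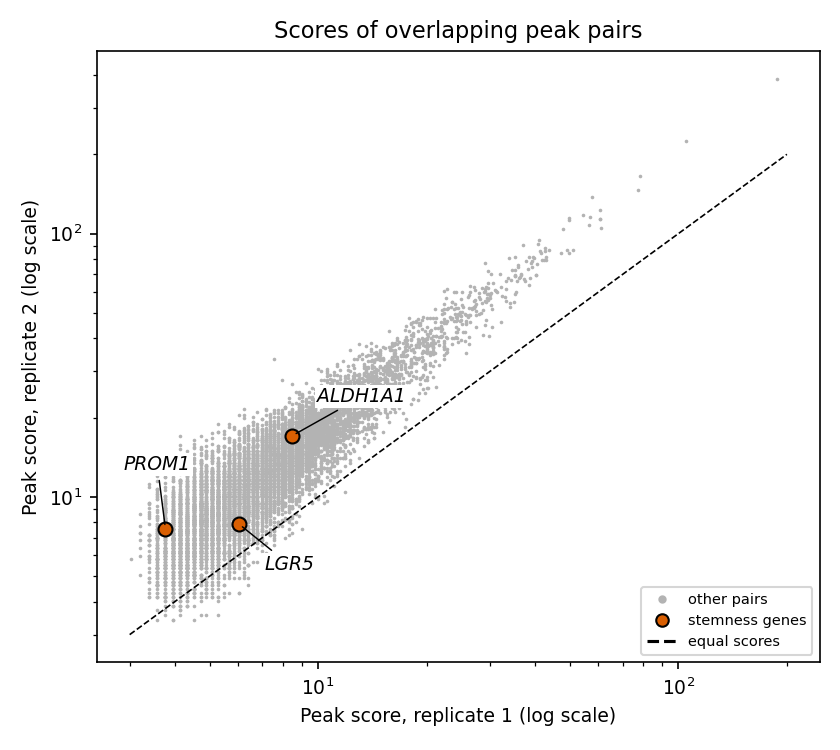
Peak scores of overlapping pairs in replicate 1 (x axis) and replicate 2 (y axis), both on log scales, with the 3 stemness gene pairs in orange and a dashed line at equal scores. ALDH1A1 at 8.49 and 17.1 is the highest of the 3, and PROM1 at 3.77 is near the lower limit of replicate 1.

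The heptamer TGTTTAC, on either strand and within 100 bp of the centre, was in 7 of the 16 replicate 2 peaks (43.8%, interval 23.1% to 66.8%), against 28.2% of all replicate 2 peaks and 2.89% of control windows 2000 bp to each side. It was in 0 of the 3 replicate 1 peaks (interval 0% to 56.1%), against 30.5% of all replicate 1 peaks and 2.88% of control windows. Within 250 bp of the centre it was in 2 of the 3 and in 8 of the 16. A wider window can only add matches, and the share of all peaks within 250 bp is not given here. The 7 replicate 2 peaks with TGTTTAC within 100 bp were 3 of PROM1, 2 of LGR5 and 1 each of ALDH1A1 and SOX2. With TGTTTAT counted too, the shares were 2 of 3 and 10 of 16 peaks, against 41.2% and 39.3% of all peaks. The AP-1 site TGACTCA was in 3 of 16 replicate 2 peaks (18.8%), near the 16.6% of the whole list. All these intervals include the share of the whole list. In the RefSeq promoter table (GRCh38.p14, 250 bases before to 50 after the start), 7 of the 10 genes were matched, all but POU5F1, LGR5 and SOX9, and none held TGTTTAC, which was in 3.42% of 35116 promoters.

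Peaks of the stemness genes lay mostly more than 10000 bp from the TSS of the deposited annotation. In replicate 2, 14 of 16 (87.5%, interval 64.0% to 96.5%) were beyond 10000 bp, against 62.1% of all peaks, and in replicate 1 all 3 were (interval 43.9% to 100%), against 57.1%. These intervals take peaks as independent, which the 16 peaks, from 6 genes, are not. Beyond 100000 bp lay 2 of the 16 (12.5%), against 16.3% of all peaks, and 0 of the 3, against 14.5%. The counts depend on the annotation, since the PROM1 intron 2 peak, counted as beyond 10000 bp, lay 598 bp from a GENCODE transcript start. The median distance was 38701 bp in replicate 2 and 26238 bp in replicate 1, against 20161 and 16140 bp over all peaks. By class, 8 replicate 2 peaks were intergenic, 7 intronic and 1 at a transcription end site. No promoter peak was among the 16 (interval 0% to 19.4%), against 18.0% of the list, and none was annotated to a repeat, against 21.7%.

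Genes related to each of the 10 were counted in the same way. Of 17 other ALDH genes, 8 had a peak in both replicates (47.1%, interval 26.2% to 69.0%), led by ALDH3B1, with scores of 25.7 and 45.2 (percentiles 98.9 and 99.3), and ALDH1A2, with 7.55 and 21.3 (percentiles 69.8 and 95.2). ALDH2, ALDH3A2, ALDH6A1 and ALDH16A1 had a peak in neither. Of 19 other Polycomb genes, from the complexes PRC1 and PRC2, 8 had a peak in both (42.1%, interval 23.1% to 63.7%). The strongest were EZH1, a histone H3K27 methyltransferase, with scores of 38.3 and 73.2 at ranks 42 and 45, and CBX7, a reader of that mark, with 29.6 and 72.1 at ranks 89 and 48. Both held TGTTTAC and both ranked above every stemness gene. CBX6, PCGF2, PCGF3, PCGF6, PHC1 and RING1 had none.

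Of 16 other pluripotency genes, 5 had a peak in both replicates (31.2%, interval 14.2% to 55.6%), led by TBX3, with percentiles of 68.0 and 89.2, and KLF4, with 49.1 and 81.3, both at sites more than 100000 bp upstream. DPPA4, LIN28A, LIN28B, SALL4, UTF1 and ZFP42 were among those with a peak in neither. Of 14 other surface markers and efflux pumps, 6 had one in both (42.9%, interval 21.4% to 67.4%), led by the integrin gene ITGA6 (82.5 and 93.2) and CD24 (82.5 and 89.6). ENG, PROM2 and THY1 had none. Of 12 genes listed beside LGR5, which hold LGR receptors, R-spondins and genes linked to Wnt signalling or LGR5-positive cells, 2 had one in both (16.7%, interval 4.7% to 44.8%), the TNF receptor family gene TNFRSF19 and the R-spondin gene RSPO3, with percentiles of 57.3 and 71.7 and of 21.9 and 71.7, while the transcription factor gene ASCL2, LGR6 and RSPO4 had none. Of 17 other SOX genes, 4 had a peak in both (23.5%, interval 9.56% to 47.3%), led by SOX4 (88.7 and 96.4) and SOX13 (78.1 and 61.9), and 10 had none: SOX1, SOX3, SOX7, SOX10, SOX11, SOX14, SOX15, SOX18, SOX21 and SOX30. All of these intervals, and that of the stemness genes, include the 28.6% of all protein-coding genes.

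**Figure D4:**
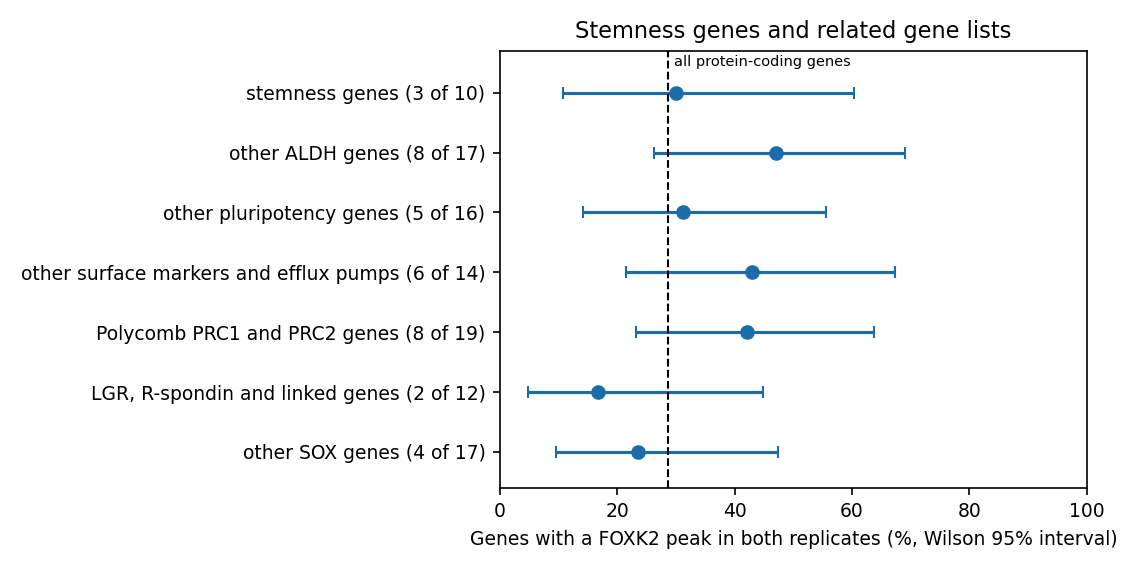
Percent of genes with a FOXK2 peak in both replicates for the stemness genes and 6 related lists, with Wilson 95% intervals and a dashed line at the 28.6% of all protein-coding genes. The interval of every list includes the dashed line.

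By the mean percentile of its strongest peak over both replicates, ALDH1A1 stood at 84.0, LGR5 at 54.0 and PROM1 at 44.9. The PROM1 value averages different sites, the intron 1 peak in replicate 1 and the distal peak in replicate 2, and at the site shared by both replicates its mean was 28.4. Over the 5736 genes with a peak in both replicates the median was 69.3, and 1694 genes stood above ALDH1A1. The nearest genes to ALDH1A1 by this measure were CSNK2A3, STARD9 and PYGB, each at 84.0.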

How the data were processed

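The FOXK2 ChIP-seq data were taken from 2 deposited peak lists of OVCAR5 cells, 1 per biological replicate. According to the methods and labels, single-end 50-bp reads were mapped to hg38 with Bowtie2 2.2.6 and peaks were identified with HOMER 4.10. The study tested peaks against input, but whether input entered the HOMER call of these lists is not given in the sources used here. The authors deposited for each peak a score, which HOMER gives as tags scaled to library depth, a focus ratio, which is a fraction of tags, and the distance in bp to the nearest TSS. Scores were ranked within a list only.

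Peaks were taken by the deposited gene name, and an overlap of 1 bp or more made a pair. Like-ranked peaks were the 500 nearest in rank. Scores below 10 were whole multiples of the step within 0.0051. Entrez identifiers matched peaks to RefSeq protein-coding genes, and 1 listed gene, TDGF1, was matched as CRIPTO. Gene bodies came from GENCODE release 44. The scripts were checked on simulated intervals and sequences. Input values were not used here, so no test of FOXK2 against input was run, and shares carry Wilson 95% intervals. The genes and lists were chosen with earlier results of these data known. Named genes were the 10 genes, the 2 genes of each related list with the highest mean percentile, those of each list with no peak, 3 genes nearest to ALDH1A1 by mean percentile, and genes listed for peaks within 10000 bp of a stemness gene. Some items are not reported here. Alternatives covered score limits, list length, distance to the TSS, gene bodies, overlap, motif window and spelling, and leaving out a replicate. Python 3.11.15, numpy 2.4.6, pandas 2.3.3, scipy 1.17.1, pysam 0.24.0 and matplotlib 3.10.9 were used.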

Additional observations from a re-analysis of the deposited data

How the results depend on the processing

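Of 45 alternative values of the counts and shares, 36 stayed within their limits and 9 moved, where a count may change by up to 1.5 times and a share may take any value inside the Wilson interval of the reported share. These intervals are wide. Replicate 2 peaks of the stemness genes numbered 9 in the higher-scoring part of the lists and 7 in lists of equal length, against 16. Within 10000 bp of the TSS, 0 genes had a peak in both replicates, 0 peaks were left in replicate 1 and 2 in replicate 2, and 0% of the latter had a partner. Replicate 1 shares with a partner or motif could then not be computed. The replicate 1 share with a motif was 66.7% within 250 bp of the centre and 66.7% with TGTTTAT counted, against 0%. No share of all peaks within 250 bp is given here for comparison. Leaving out each replicate in turn gave 3 to 6 genes with a peak, and without replicate 1 the number was 6. By GENCODE body the peaks numbered 4 and 21 and 3 genes had both. By RefSeq body, an alternative chosen after seeing the data, they numbered 2 and 17 and 2 genes had both, without ALDH1A1. The 8 alternative percentiles of strongest peaks, all for the limit of 100000 bp, could not move, because those peaks already lay within it. They therefore say nothing about stability. ALDH1A3 had no peak left within 100000 bp.

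No paired analysis was possible because the values used here are peak lists of the FOXK2 libraries alone, and input, which the labels number alike, was not analysed here. With 3 and 16 peaks, shares of the stemness genes are imprecise, and the depth of the libraries is known only under the assumed HOMER scale.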
